A study of Mus musculus with 3 samples.

Results

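Levels of 10 genes that mark the lymphoid priming of multipotent progenitors were followed in mouse bone marrow: Dntt, Il7r, Ltb, Satb1, Sox4, Notch1, Cd27, Ikzf1, Mef2c and Bcl11a. They were chosen by name, and all 10 were present among the 14721 genes of the count table. The cells were bone marrow LSK cells, sorted without mature lineage markers and with Sca-1 and Kit, a fraction that holds stem cells and multipotent progenitors, and were captured with 10x Chromium 3′ version 2 chemistry. There was 1 library for each of 3 genotypes: DKO, labelled Spop(D/D) Myd88(-/-), KO, labelled Spop(D/D) Myd88(+/+), and WT, labelled Spop(+/+) Myd88 (+/+). DKO and KO thus share the Spop alteration and differ in Myd88. SPOP is the substrate adaptor of a CUL3 ubiquitin ligase, and MyD88 carries signals from Toll-like receptors and receptors of the interleukin-1 family. The driver of the Spop deletion, the age of the mice and the number of mice behind each library are not given in the sources used here.

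Lymphoid priming is the low-level transcription of lymphoid genes in progenitors that can still form other blood cells. As such cells move towards the B lineage they begin to transcribe Dntt and the rearrangement machinery, gain the interleukin-7 receptor, and then start the B cell programme under EBF1 and PAX5. Ikaros, the product of Ikzf1, together with MEF2C, SATB1, SOX4 and BCL11A, takes part in opening this programme, while Notch1 signals drive the alternative T cell fate.

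The promoters of Dntt, Il7r and Ltb are shown because these genes had the largest differences between KO and WT below. Each sequence is the RefSeq window of 250 bases before and 50 bases after an annotated start on GRCm38.p6, printed 5′ to 3′ on the strand of the gene. Capitals mark matches to the motifs searched on both strands: the E-box CAGGTG or CACCTG, the Ikaros core TGGGAA or TTCCCA, the Ets core AGGAAG or CTTCCT, and the Runx motif TGTGGT or ACCACA. The Dntt window lies at chr19:41029025-41029324 on the plus strand, the Il7r window at chr15:9529827-9530126 on the minus strand, and the Ltb window at chr17:35194257-35194556 on the plus strand.
Dntt: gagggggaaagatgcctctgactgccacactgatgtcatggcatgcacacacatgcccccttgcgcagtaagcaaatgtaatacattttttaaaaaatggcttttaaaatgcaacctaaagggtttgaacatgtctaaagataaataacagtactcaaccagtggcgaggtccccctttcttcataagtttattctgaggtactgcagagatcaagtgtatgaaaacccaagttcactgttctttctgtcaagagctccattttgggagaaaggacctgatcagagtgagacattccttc
Il7r: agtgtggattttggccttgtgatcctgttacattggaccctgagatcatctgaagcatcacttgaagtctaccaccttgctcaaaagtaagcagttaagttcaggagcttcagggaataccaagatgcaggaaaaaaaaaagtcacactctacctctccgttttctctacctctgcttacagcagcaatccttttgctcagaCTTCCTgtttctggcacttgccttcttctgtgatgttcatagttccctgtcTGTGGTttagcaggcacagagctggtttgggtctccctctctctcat
Ltb: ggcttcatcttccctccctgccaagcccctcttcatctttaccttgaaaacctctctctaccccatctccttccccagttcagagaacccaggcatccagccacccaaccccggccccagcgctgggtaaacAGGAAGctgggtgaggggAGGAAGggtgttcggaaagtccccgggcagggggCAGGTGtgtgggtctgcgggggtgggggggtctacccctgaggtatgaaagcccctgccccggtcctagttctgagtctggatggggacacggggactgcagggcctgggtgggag
The Dntt window held 0 matches, the Il7r window 1 Ets core and 1 Runx match, and the Ltb window 1 E-box and 2 Ets core matches. Among 32851 RefSeq promoter windows of this length, 20.2% held the E-box, 25.6% the Ikaros core, 35.4% the Ets core and 16.8% the Runx motif. A match describes letters only, and the lack of one says only that these letters are not in the window.

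All 10 are protein-coding genes (GENCODE vM21, GRCm38). On the plus strand lie Dntt (chromosome 19, 41029275 to 41059525), Ltb (chromosome 17, 35194439 to 35196320), Ikzf1 (chromosome 11, 11685003 to 11772926), Mef2c (chromosome 13, 83504034 to 83667080) and Bcl11a (chromosome 11, 24078056 to 24174123). On the minus strand lie Il7r (chromosome 15, 9505788 to 9530176), Satb1 (chromosome 17, 51736187 to 51833290), Sox4 (chromosome 13, 28948919 to 28953713), Notch1 (chromosome 2, 26457903 to 26516663) and Cd27 (chromosome 6, 125232622 to 125237010).

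In the DKO library there were 8184 cells and 109920419 UMIs (unique molecular identifiers, each standing for 1 captured transcript), the KO library 4920 cells and 101393024 UMIs, and the WT library 8147 cells and 85700749 UMIs. The median per cell was 12404.5, 17319 and 9245 UMIs in DKO, KO and WT. Myd88 was at 4.47 counts per 1000000 UMIs (CPM) in DKO, 25.8 in KO and 13.7 in WT, and Spop was at 77.1, 63.1 and 70.7 CPM in the same order. Because only 3′ ends were tagged, and which exons the D allele lacks is not given in the sources used here, the Spop level does not check the deletion. Of the sort markers, Kit was at 65.9, 41.5 and 94.8 CPM and Ly6a, the Sca-1 gene, at 89.5, 85.1 and 90.4 CPM in DKO, KO and WT. Xist was at 1537 CPM in DKO, 0 in KO and 0.187 in WT, and the Y-linked Ddx3y at 0, 32.2 and 43.9 CPM, so that the sex of the mice and the Myd88 genotype cannot be told apart in the DKO comparisons. A cell barcode was shared between libraries in 183 cases. No genotype was replicated, so no test was made, and all 95% intervals cover counting error only.

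Cells of the 3 libraries were clustered together on other genes than the 10, and clusters were named from marker genes where enough of them led the cluster. Lymphoid-primed-like cells, led by Wfdc17, Flt3 and Il12a, made up 3.86% of DKO (95% interval 3.45 to 4.30), 0.305% of KO (0.171 to 0.502) and 17.5% of WT cells (16.6 to 18.3). A cluster led by Cox6a2, Ly6d and Arpp21 made up 3.64% of DKO, 1.63% of KO and 9.12% of WT cells. It stayed unnamed because lymphoid-primed markers (Cnn3, Il12a, Ly86) and monocyte-dendritic markers (Irf8, Cd74) both stood among its leading genes, and it is called the Ly6d cluster below. B lineage-like cells made up 0.171% of DKO, 0.0610% of KO and 8.14% of WT cells, and stem cell-like cells 3.91%, 1.71% and 11.7%. KO cells lay mostly elsewhere, with 32.3% in a cluster led by Ifitm1 and Vldlr, 27.4% neutrophil progenitor-like and 22.7% erythroid progenitor-like, against 0.159%, 1.28% and 2.10% of DKO cells and 0.172%, 0.663% and 0.466% of WT cells. Where a cluster came almost wholly from 1 library, library and cell type cannot be told apart. Orders of classes given below cover groups of at least 50 cells, which leaves out, among others, the 15 lymphoid-primed-like KO cells and the 38 erythroid progenitor-like WT cells.

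In the whole libraries each of the 10 genes was lowest in KO, intermediate in DKO and highest in WT. In such sums, fewer cells of a type and less RNA per cell cannot be told apart. Of the 9 genes with a mean of at least 20 CPM over KO and WT, 9 were lower in KO by 1.5-fold or more, where 12.3% of 5141 genes were at least 1.5-fold lower and 8.85% higher. Il7r, the tenth, lay below that level with a mean of 13.3 CPM. The median log2 KO/WT ratio of the 9 genes was -1.69, against 0.02 for all genes. Between DKO and KO, 6 of 8 genes over the level were higher in DKO (Dntt, Ltb, Satb1, Sox4, Cd27 and Mef2c), against 13.4% of 5163 genes higher and 6.02% lower, and the median log2 ratio was 1.07 against 0.08 for all genes. Between DKO and WT, 4 of 9 were lower in DKO (Dntt, Ltb, Satb1 and Notch1), against 1.87% of 5307 genes lower and 2.43% higher, and the median was -0.51 against 0.09. With TMM scaling, which assumes that most genes do not change, the all-gene median of KO/WT was 0.17 in place of 0.02 and that of DKO/KO was -0.12 in place of 0.08, and Ikzf1 was then less than 1.5-fold lower in KO. Marker genes of other cells differed as well: 15 B lineage markers summed to 142 CPM in DKO, 170 in KO and 1261 in WT, with 0, 3 and 0 of them at 0, and neutrophil progenitor markers to 2052, 7809 and 1077 CPM. Values within classes, and with these cells left out, follow.

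**Figure D1:**
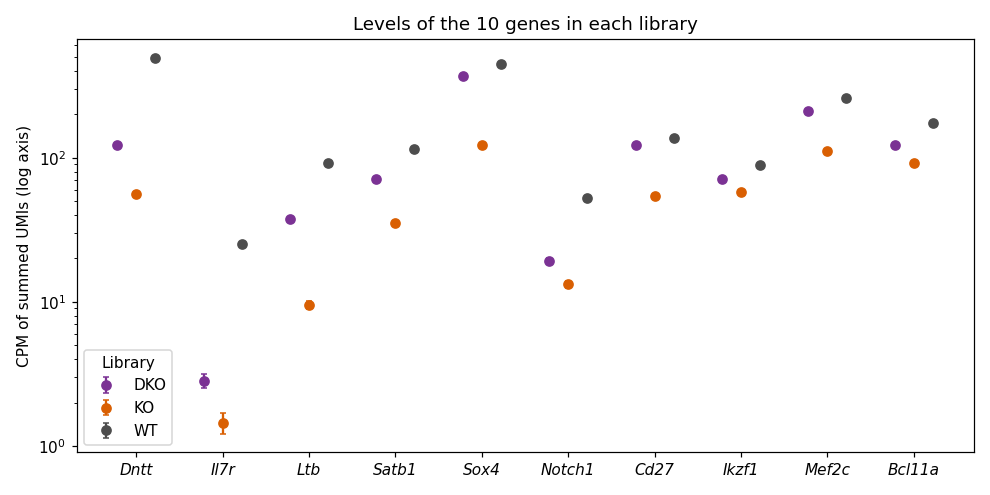
CPM of each of the 10 genes in the DKO, KO and WT libraries on a log axis, 1 point per library, with 95% Poisson intervals that cover counting error only (mostly narrower than the points). KO is the lowest and WT the highest point for every gene; Il7r spans 1.45 CPM in KO to 25.1 in WT, and Ikzf1 58.2 to 88.4.

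Among the surface receptors and ligands, Il7r encodes the alpha chain of the interleukin-7 receptor, on which mouse B cell progenitors depend. It was at 2.84 CPM in DKO (312 UMIs), 1.45 in KO (147 UMIs) and 25.1 in WT (2150 UMIs). Set against WT, the level was 17.3-fold lower in KO (95% interval 14.6 to 20.6) and 8.84-fold lower in DKO (7.85 to 9.98). The intervals of the 3 libraries did not overlap. At an equal depth of 5500 UMIs per cell, which leaves out 178 DKO, 0 KO and 683 WT cells, 1.09% of DKO, 0.772% of KO and 7.82% of WT cells had an Il7r UMI. At full depth the shares were 2.27%, 1.65% and 11.8%. The share in megakaryocyte progenitor-like cells, which should lack Il7r, was 0 of 722 DKO, 0 of 356 KO and 0 of 305 WT cells at equal depth, which allows up to 0.416%, 0.843% and 0.984%. In WT, 53.0% of all Il7r UMIs came from B lineage-like cells and 34.0% from the Ly6d cluster. In DKO and KO the Ly6d cluster gave 65.7% and 59.9%. Lymphoid-primed-like cells held little, at 5.35 CPM in DKO and 2.42 in WT, against 45.6 and 83.0 CPM in the Ly6d cluster.

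Ltb encodes lymphotoxin beta, a membrane ligand of the tumour necrosis factor family. It was at 37.3 CPM in DKO, 9.52 in KO and 91.7 in WT, 9.63-fold lower in KO relative to WT (9.01 to 10.3) and 3.91-fold higher in DKO than in KO (3.65 to 4.20), the largest DKO/KO ratio of the 10. Its order over cell classes was unlike that of Il7r: among groups of at least 50 cells, stem cell-like cells had the highest level in each library, at 163 CPM in DKO, 106 in KO and 206 in WT, and the Ly6d cluster had 28.3, 18.7 and 41.6 CPM. The 15 lymphoid-primed-like KO cells, below that size, had 196 CPM (130 to 283). Among groups of that size, neutrophil progenitor-like cells had the lowest level in each library, at 1.94, 0.848 and 5.77 CPM.

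Cd27, a tumour necrosis factor receptor family member of multipotent and lymphoid progenitors, was at 123 CPM in DKO, 54.2 in KO and 138 in WT. It was 2.54-fold lower in KO than in WT (2.46 to 2.63), and DKO and WT lay within 1.5-fold of each other. Among WT groups of at least 50 cells it was highest in lymphoid-primed-like cells (208 CPM, interval 200 to 216) and lowest in B lineage-like cells (42.7). Cd27 overlaps Vamp1 on the other strand; whether the counting used strand is not given in the sources used here.

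Notch1, the receptor that directs progenitors to the T lineage, was at 19.2 CPM in DKO, 13.2 in KO and 52.7 in WT. Relative to WT it was 4.0-fold lower in KO (3.76 to 4.26) and 2.74-fold lower in DKO (2.60 to 2.89), with a DKO/KO ratio of 1.46. The Ly6d cluster had the highest level in each library, at 82.1, 94.2 and 134 CPM in DKO, KO and WT. In KO, 42.7% of Notch1 UMIs nevertheless came from neutrophil progenitor-like cells, which were numerous but held 12.7 CPM.

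Dntt encodes terminal deoxynucleotidyl transferase, which adds untemplated nucleotides to antigen receptor joints. It was at 122 CPM in DKO, 55.7 in KO and 489 in WT, and no intervals overlapped. Relative to WT it was 8.79-fold lower in KO (8.55 to 9.04) and 4.0-fold lower in DKO (3.92 to 4.08), and DKO was 2.20-fold higher than KO (2.13 to 2.27). At equal depth 17.3% of DKO, 12% of KO and 41.8% of WT cells had a Dntt UMI (23.5%, 18.8% and 48.3% at full depth), a larger share in WT than in DKO and KO. The shares among megakaryocyte progenitor-like cells, taken as background, were 0.831%, 1.97% and 7.54%, and among erythroid progenitor-like cells 1.78% in DKO and 2.23% in KO. Levels were steeply graded over the WT classes, with 1712 CPM in the Ly6d cluster, 1273 in B lineage-like, 328 in lymphoid-primed-like, 20.1 in stem cell-like and 11.6 in megakaryocyte progenitor-like cells. Unnamed WT clusters also lay between B lineage-like and lymphoid-primed-like cells, among them the cluster led by Hist1h2bc and Ccnb2 at 624 CPM. In KO, 58.0% of Dntt UMIs came from the Ifitm1 and Vldlr cluster, where it was at 125 CPM and in 26.1% of cells at equal depth, above the background share.

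Among the transcription factors, Satb1, a chromatin organiser of lymphoid progenitors, was at 70.6 CPM in DKO, 35.4 in KO and 114 in WT, 3.23-fold lower in KO than in WT (3.11 to 3.35). Among WT groups of at least 50 cells it was highest in the Ly6d cluster (224 CPM) and lymphoid-primed-like cells (187), lower in B lineage-like cells (91.6) and lowest in megakaryocyte progenitor-like cells (4.37). Sox4, an HMG box factor needed for B cell development in mice, was at 367 CPM in DKO, 122 in KO and 450 in WT, 3.70-fold lower in KO relative to WT (3.62 to 3.77), and DKO was 3.01-fold higher than KO (2.95 to 3.07). Its WT levels were spread widely, with 672 CPM in lymphoid-primed-like, 420 in stem cell-like, 272 in B lineage-like and 177 in megakaryocyte progenitor-like cells. Both genes were thus lower in B lineage-like than in lymphoid-primed-like cells of WT. Sox4 overlaps Gm26735 on the other strand.

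Ikzf1, Mef2c and Bcl11a were broad. Ikzf1, encoding the zinc finger factor Ikaros, was at 71.7 CPM in DKO, 58.2 in KO and 88.4 in WT, the smallest KO/WT difference of the 10 at 1.52-fold (1.47 to 1.57). Within WT it ranged from 142 CPM in the Ly6d cluster to 46.9 in basophil-mast progenitor-like cells. Mef2c, a MADS box factor that favours lymphoid over myeloid fate, was at 210 CPM in DKO, 112 in KO and 259 in WT, 2.31-fold lower in KO than in WT (2.26 to 2.37). Outside the Ly6d cluster its WT peak was in megakaryocyte progenitor-like cells (328 CPM), and in KO those cells had the highest level of all (365, interval 349 to 382), above the Ly6d cluster (300). Bcl11a, a zinc finger repressor needed for B cell development and known for silencing fetal globin genes, was at 123 CPM in DKO, 91.3 in KO and 175 in WT, 1.91-fold lower in KO than in WT (1.87 to 1.97). It reached 285 CPM in WT B lineage-like cells and 202 and 161 CPM in erythroid progenitor-like cells of DKO and KO. A peak before the B lineage was thus not shared by all 10 genes. In WT, Il7r and Bcl11a were highest in B lineage-like cells, Ltb in stem cell-like cells, Sox4 and Cd27 in lymphoid-primed-like cells, and Dntt, Satb1, Notch1, Ikzf1 and Mef2c in the Ly6d cluster. The Sox4 and Cd27 intervals overlapped those of the next class.

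**Figure D2:**
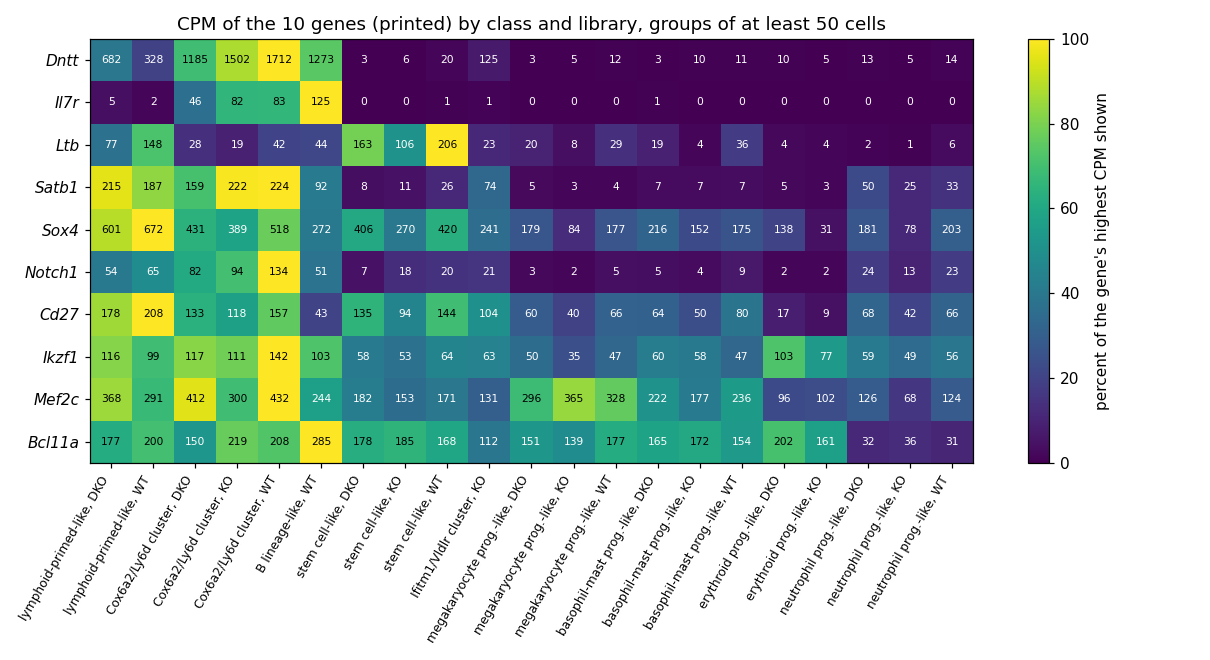
CPM of each gene (rows, printed in each field) in cell classes split by library (columns, groups of at least 50 cells), coloured as a percentage of the highest value in the row. Dntt and Il7r are brightest in the Ly6d cluster and B lineage-like cells, Ltb is brightest in stem cell-like cells, and Mef2c and Bcl11a are spread over many classes.

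The same genes were then compared within named classes and the Ly6d cluster, where both libraries held at least 50 cells. Most other clusters, and some DKO/WT pairs of named classes, are not covered. DKO and WT differed there too. Over the unnamed clusters, Notch1 DKO/WT ratios ran from 0.371 in a cluster led by Klf2 and Fos to 0.647 in one led by Txnip and Stxbp4. In neutrophil progenitor-like cells the Notch1 ratio was 1.03 (0.63 to 1.72). Satb1 had a ratio of 1.62 in the Txnip and Stxbp4 cluster and 1.54 in neutrophil progenitor-like cells, and Ltb 0.541 in basophil-mast progenitor-like cells. Apart from the 1.03, these are examples past 1.5-fold, and all-gene shares were not computed for these groups. In the Ly6d cluster (298 DKO, 80 KO and 743 WT cells) the KO/WT ratios of Dntt, Il7r and Satb1 were near 1. Dntt was at 1502 CPM in KO and 1712 in WT, a ratio of 0.878 (0.833 to 0.924). Il7r was at 82.1 and 83.0 CPM (ratio 0.990, 0.784 to 1.24) and Satb1 at 222 and 224 CPM (0.989, 0.861 to 1.13), so that the KO/WT interval of both included 1. Of the 10 genes 1 was at least 1.5-fold lower in KO, Ltb, at 18.7 CPM in KO and 41.6 in WT (ratio 0.449, 0.271 to 0.703); the share of 4982 genes was 7.11% lower and 2.07% higher. Sox4 (0.751), Notch1 (0.703), Cd27 (0.751), Ikzf1 (0.783) and Mef2c (0.696) had intervals below 1 without reaching 1.5-fold. The median log2 ratio was -0.38, against -0.09 for all genes in the cluster. B lineage markers summed to 349 CPM in KO, with 5 of 15 at 0, and 782 CPM in WT, with 0 of 15 at 0; their part in these ratios was not tested.

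DKO was also compared with WT in the Ly6d cluster. Il7r was at 45.6 CPM in DKO and 83.0 in WT (ratio 0.550, 0.469 to 0.643) and Notch1 at 82.1 and 134 CPM (0.613, 0.544 to 0.689). These 2 of the 10 were at least 1.5-fold lower, against 2.41% of 5113 genes lower and 2.27% higher. Ltb (0.679), Dntt (0.693), Satb1 (0.708), Bcl11a (0.722), Ikzf1 (0.822), Sox4 (0.832) and Cd27 (0.847) were also below 1 with intervals that excluded it, and the interval of Mef2c (0.955) included 1. B lineage markers summed to 278 CPM in DKO, with 2 of 15 at 0, against 782 in WT, and their part was not tested here either. Between DKO and KO in this cluster, Il7r was lower in DKO (0.556, 0.431 to 0.722) and Ltb passed 1.5-fold on the higher side at 1.51, with an interval of 0.941 to 2.56 that included 1. Among all 4960 genes 10.8% were higher and 3.41% lower there. Dntt (0.789), Satb1 (0.715) and Bcl11a (0.686) were also lower in DKO than in KO here, with intervals below 1, the opposite order to the whole libraries. The median log2 ratio of the 10 genes was -0.48 for DKO/WT and -0.06 for DKO/KO, against 0.03 and 0.12 for all genes.

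For Dntt, Il7r and Satb1 the direction of DKO against KO also turned when the mix of cells was changed. With erythroid, neutrophil and B lineage cells left out, the log2 DKO/KO ratio was -0.16 for Dntt and -0.23 for Il7r, while 7 of 10 genes were higher in DKO, and 2 were called at 1.5-fold. Standardised to the WT cluster shares over 6 clusters with 27.7% of DKO, 44.6% of KO and 29.0% of WT cells, 1 gene was at least 1.5-fold lower in KO than WT, 1 was higher and 1 lower in DKO than KO, and 2 were lower in DKO than WT. These clusters include the Ly6d cluster but not the lymphoid-primed-like or B lineage-like cells, which were too few in KO. The standardised log2 DKO/KO ratio was -0.35 for Dntt, -0.84 for Il7r and -0.44 for Satb1. With that standardisation 5 of 10 genes kept the sign of their whole-library DKO/KO ratio, and the median log2 ratio was -0.04. The KO/WT ratio with erythroid, neutrophil and B lineage cells left out was below 1 for 10 of 10 genes, with a median log2 ratio of -1.02.

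Lymphoid-primed-like cells allowed a comparison of DKO with WT, since KO had 15 such cells. Dntt was at 682 CPM in 316 DKO cells and 328 CPM in 1422 WT cells (ratio 2.08, 1.97 to 2.19), and Ltb at 77.4 and 148 CPM (0.523, 0.456 to 0.598). They were the 2 of 9 genes past 1.5-fold, where 2.54% of 5239 genes were higher and 2.25% lower. Satb1, Ikzf1 and Mef2c had ratios of 1.15, 1.18 and 1.27, and Sox4, Notch1, Cd27 and Bcl11a ratios of 0.894, 0.831, 0.854 and 0.888. The Dntt ratio depended on where the class ended: it was 0.912 at Leiden resolution 0.6 (750 DKO and 2487 WT cells) and 1.03 at 1.5 (585 and 1935 cells), where the class joins several clusters that DKO and WT fill unequally.

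In stem cell-like cells (320 DKO, 84 KO, 957 WT), Ltb was at 106 CPM in KO and 206 in WT (ratio 0.513, 0.410 to 0.635), Sox4 at 270 and 420 CPM (0.642, 0.559 to 0.734) and Cd27 at 93.9 and 144 CPM (0.651, 0.512 to 0.817). These 3 of 6 genes passed 1.5-fold, against 5.82% of 5227 genes lower and 3.19% higher, while Ikzf1, Mef2c and Bcl11a had intervals that included 1. In DKO against WT 0 of 6 reached 1.5-fold, where 5.23% of 5394 genes were higher and 2.37% lower. Ltb and Sox4 were higher in DKO than in KO there, with ratios of 1.54 (1.23 to 1.95) and 1.51 (1.31 to 1.74).

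Megakaryocyte progenitor-like cells, a class outside the lymphoid branch that all 3 libraries held (736 DKO, 356 KO, 336 WT), were compared next. Sox4 was at 179 CPM in DKO, 84.0 in KO and 177 in WT, a KO/WT ratio of 0.474 (0.418 to 0.538) and a DKO/KO ratio of 2.13 (1.91 to 2.37). Cd27 was at 60.5, 40.3 and 65.5 CPM, with a KO/WT ratio of 0.616 (0.507 to 0.748). Of 5 genes these 2 passed 1.5-fold, against 4.28% of 5121 genes lower and 3.85% higher. Mef2c was at 365 CPM in KO and 328 in WT, a ratio of 1.11 (1.03 to 1.20). In DKO against WT 0 of 6 passed, against 3.87% of 5224 genes higher and 1.38% lower. In basophil-mast progenitor-like cells 1 of 5 genes, Cd27, passed, at 50.2 CPM in KO and 80.4 in WT (0.624, 0.510 to 0.762), against 5.32% of 5192 genes lower and 2.37% higher. In neutrophil progenitor-like cells (1350 KO, 54 WT), Sox4 was at 78.2 CPM in KO and 203 in WT (0.385, 0.335 to 0.445), Cd27 at 41.5 and 66.3 CPM (0.626, 0.492 to 0.808) and Mef2c at 67.8 and 124 CPM (0.547, 0.459 to 0.658). These 3 of 6 genes passed, against 6.84% of 4738 genes lower and 9.96% higher. Of the 5 classes compared between KO and WT, Cd27 was thus lower in KO by 1.5-fold or more in 4, all but the Ly6d cluster, and Sox4 in 3, the stem cell-like, megakaryocyte progenitor-like and neutrophil progenitor-like cells. Ltb was below the 20 CPM level in 3 of these classes and so not counted there. Its KO/WT ratio was 0.295 (0.201 to 0.426) in megakaryocyte progenitor-like cells, at a mean of 18.7 CPM. It was 0.0991 (0.0482 to 0.184) in basophil-mast progenitor-like cells, at 19.5 CPM, and 0.147 in neutrophil progenitor-like cells, at 3.31 CPM.

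Marker genes also differed between KO and WT within these classes. Of 14 megakaryocyte progenitor markers 12 were in the count table. In megakaryocyte progenitor-like cells these 12 summed to 4106 CPM in KO and 1880 in WT. The 16 stem cell markers summed to 535 and 829 CPM there, and 0 of the genes of either list in the count table were at 0. In basophil-mast progenitor-like cells the 12 neutrophil progenitor markers summed to 1340 CPM in KO and 356 in WT, with 1 and 0 of them at 0, and the stem cell markers to 433 and 726 CPM. In stem cell-like cells the neutrophil progenitor markers summed to 1030 CPM in KO and 700 in WT, with 1 and 0 at 0. The part of these markers in the Sox4, Cd27, Ltb and Mef2c ratios was not tested.

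**Figure D3:**
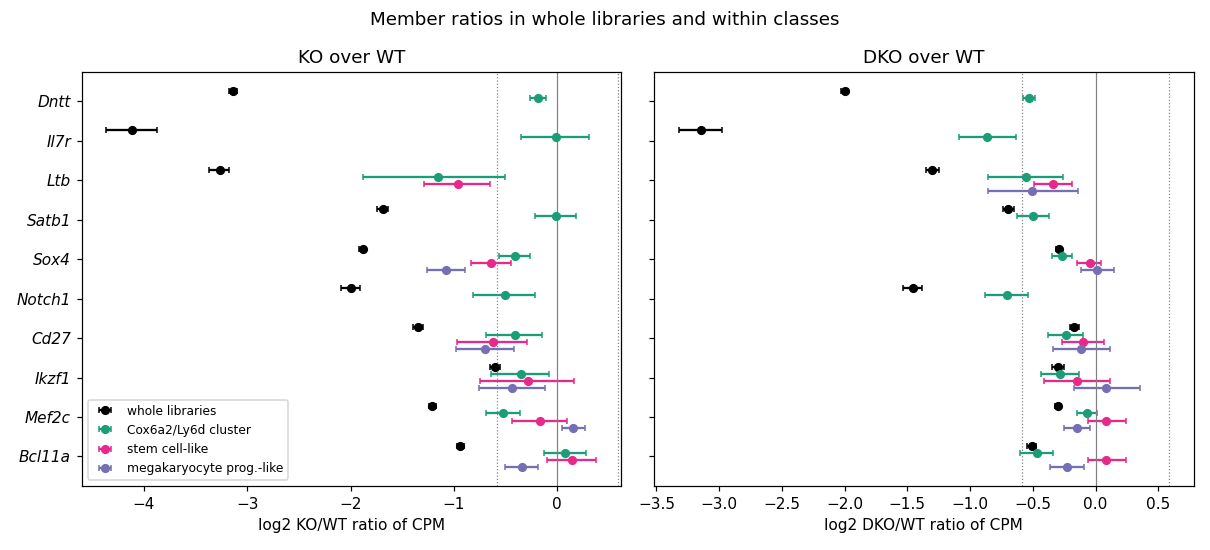
Log2 ratios of CPM, KO over WT on the left and DKO over WT on the right, in whole libraries (black) and within 3 classes, with 95% intervals for counting error; dotted lines mark 1.5-fold, and within classes genes below a mean of 20 CPM are not drawn. Whole-library KO/WT ratios reach -4.11 for Il7r and -3.14 for Dntt, while those in the Ly6d cluster are -0.02 and -0.19.

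Detection in single cells was compared at 5500 UMIs per cell. A cell held a median of 3 of the 10 genes in DKO, 2 in KO and 4 in WT. At least 5 were found in 24.4% of 8006 DKO cells (23.5 to 25.4), 9.47% of 4920 KO cells (8.67 to 10.3) and 47.2% of 7464 WT cells (46.0 to 48.3). No gene of the 10 was found in 1.35% of DKO, 10.7% of KO and 0.576% of WT cells. Within the Ly6d cluster the share with at least 5 was 76.6% in DKO (71.4 to 81.3), 81.2% in KO (71.0 to 89.1) and 84.9% in WT (82.0 to 87.5). The KO interval there overlapped both others. In the erythroid progenitor-like class the share was 4.14% in DKO and 0.357% in KO. That class is not free of the 10 genes, with Bcl11a at 202 and Ikzf1 at 103 CPM in DKO. WT had 38 such cells, too few for a share.

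**Figure D4:**
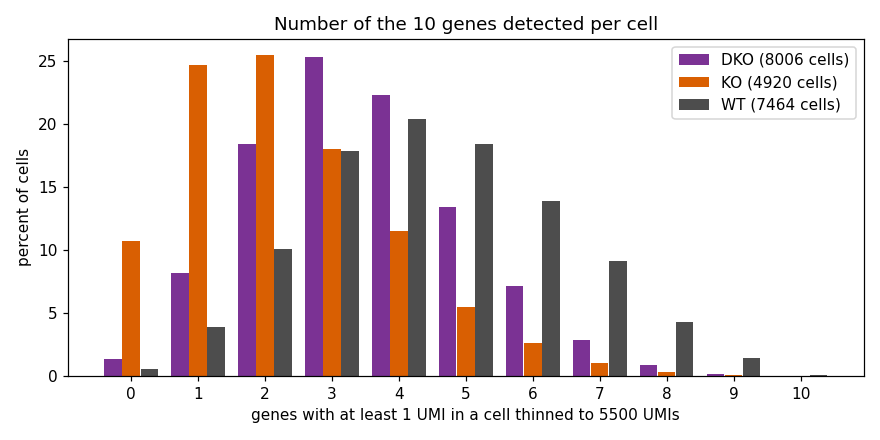
Share of cells (percent) in which 0 to 10 of the genes had at least 1 UMI, after each cell was thinned to 5500 UMIs; bars are DKO, KO and WT. The KO bars lean to 0 to 2 genes and the WT bars to 4 and more, with 9.47% of KO and 47.2% of WT cells at 5 or more.

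Cells with a Dntt UMI were set beside cells without one. Il7r was found in 5.13% of DKO, 5.77% of KO and 17.9% of WT cells with Dntt, against 0.242%, 0.0924% and 0.575% of cells without. In the other direction, 81.6% of DKO, 89.5% of KO and 95.7% of WT cells with an Il7r UMI also had a Dntt UMI, so that most Il7r-positive cells were Dntt-positive. Satb1 accompanied Dntt in 58.4%, 51.8% and 57.1% of cells, against 21.7%, 11.8% and 26.5% of cells without Dntt. Notch1 did so in 24.7%, 17.3% and 34.1%, against 6.21%, 5.33% and 13.9%. Ltb behaved otherwise in WT, where it was in 30% of cells with Dntt (28.4 to 31.7) and 35.1% of cells without (33.6 to 36.5). In DKO it was in 20.2% of cells with Dntt and 18.2% without. In KO it was in 14.3% and 5.61%, higher beside Dntt as Satb1 and Notch1 were. Leaving out B lineage-like cells, Il7r was in 11.8% of WT cells with Dntt and 0.439% of those without.

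**Figure D5:**
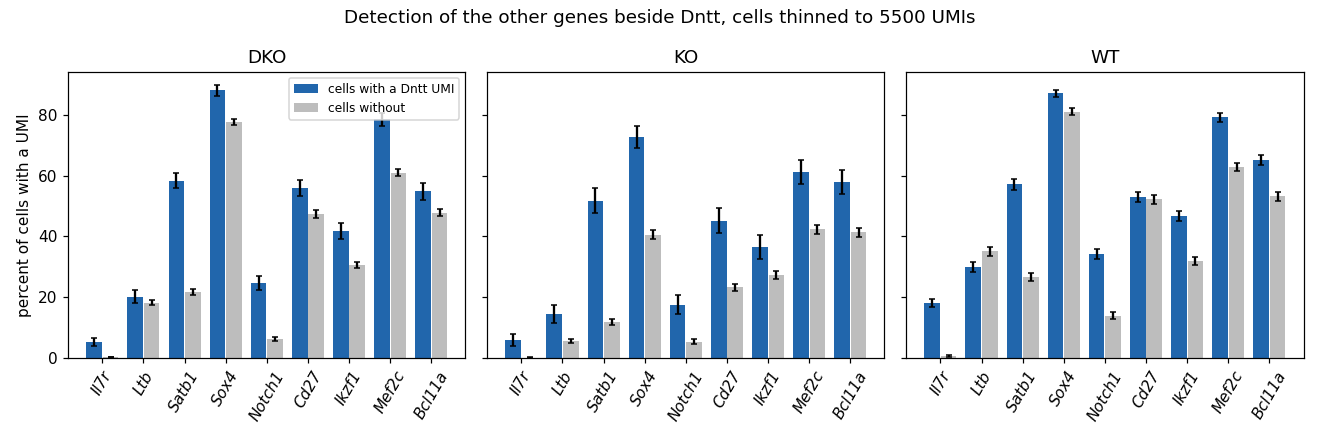
Percent of cells with a UMI of each other gene among cells with (blue) and without (grey) a Dntt UMI, thinned to 5500 UMIs, with 95% Clopper-Pearson intervals, in DKO, KO and WT. Satb1, Notch1 and Il7r are higher beside Dntt in each library. Ltb is higher beside Dntt in KO, while in WT it is 30% beside Dntt and 35.1% without it.

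How alike the patterns were was described over 36 class-by-library groups with log2(CPM + 10), groups that share libraries, depth and normalisation. The groups were built by clustering on variable genes other than the 10, which can raise r for genes that shape the clusters. Flt3, Il12a, Gpr171, Ly6d and Bfsp2 below were also among the markers used for naming. Dntt was most like Notch1 (Pearson r 0.92), Cdk19 (0.90) and Il12a (0.89), and Satb1 like Flt3 (0.97), Xpc (0.93) and Rasa4 (0.92). Il7r was most like Ly6d (0.97), Bfsp2 and Xrcc6 (0.85 each), and Notch1 like Dntt (0.92), Satb1 and Slc43a2 (0.91 each). Sox4 followed Gpr171 and Cd27 (0.93 each) and Arhgap30 (0.92), and Cd27 followed Runx2 (0.95), Tes (0.94) and Agpat2 (0.93). Ltb followed Csad (0.91), Klf10 (0.90) and Vgll4 (0.89). Lower values were found for Ikzf1, with Net1 (0.85), Zmiz1 and Inpp5d (0.84 each), for Mef2c, with Tbxa2r (0.83), Il12a (0.78) and Ptp4a3 (0.77), and for Bcl11a, with Mbp (0.82), Cds2 (0.80) and Lat (0.79). Between the 10 genes themselves, r ranged from 0.03 for Satb1 with Bcl11a to 0.93 for Sox4 with Cd27.

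Partners of these genes were read from lists, whose counts stand beside the all-gene shares in the whole libraries: 12.3% lower and 8.85% higher for KO/WT, 13.4% higher and 6.02% lower for DKO/KO, and 2.43% higher and 1.87% lower for DKO/WT. The lists hold few genes, so 1 gene moves a share widely. TMM was applied to them after seeing the data. Of the interleukin-7 receptor signalling list, 8 of 14 genes were over the level for KO and WT, of which 4 were lower in KO by 1.5-fold or more and 0 higher (median log2 -0.57). With TMM scaling 0 were lower. In DKO against KO 5 of 8 were higher (2 with TMM). In DKO against WT 1 of 8 was higher (Crlf2) and 0 lower, but with TMM, size factors or the total without the 50 most abundant genes 0 were higher and 1 lower (Mcl1). Il2rg, the common gamma chain that pairs with IL7R, was at 44.5 CPM in DKO, 28.3 in KO and 46.8 in WT, and Jak1, the kinase bound to IL7R, at 117, 70.6 and 112 CPM. Mcl1, an anti-apoptotic factor, was at 53.9, 50.7 and 80.2 CPM. Of the Notch list, 9 genes were over the level, of which 4 were lower in KO and 0 higher (1 higher, Psen2, with TMM). In DKO against KO 2 of 7 were higher and in DKO against WT 1 of 8 was lower. Mfng, a glycosyltransferase that modifies Notch receptors, was at 83.8, 42.1 and 84.5 CPM, Maml3, a Notch coactivator, at 19.6, 10.8 and 32.5, and Dtx3 at 51.5, 22.3 and 42.2. Of the lymphotoxin and CD27 list, 2 genes were over the level and 0 passed in the 3 comparisons (Siva1 was higher in KO with TMM), Siva1 at 244, 323 and 234 CPM and Traf2 at 23.6, 20.9 and 20.3.

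Of 10 Ikaros family and chromatin partner genes over the level 1 was lower in KO, against 12.3% of all genes, namely Ikzf2, the gene for Helios, at 88.1 CPM in DKO, 38.3 in KO and 76.5 in WT, while the NuRD subunits Chd4 (198, 172 and 216 CPM) and Hdac1 (104, 73.6 and 87.6) lay within 1.5-fold. Of 15 lymphoid specification factors 7 were lower in KO (5 with TMM) and 0 higher, against 12.3% and 8.85% of all genes. In DKO against KO 5 of 14 were higher and 0 lower, but 3 higher and 1 lower (Irf8) with TMM or size factors, against 13.4% and 6.02% of all genes. In DKO against WT 3 of 15 were lower, against 1.87% of all genes. Ebf1, which starts the B cell programme, was at 2.10 CPM in DKO, 1.34 in KO and 147 in WT. Erg was at 46.4, 16.9 and 52.4 CPM and Tcf4 at 96.7, 53.3 and 119. Of 3 rearrangement and end-joining genes over the level 1 was lower in KO, Xrcc6, the Ku70 gene, at 62.8, 34.8 and 74.2 CPM, while Hmgb1 (1375, 1340 and 1438) and Hmgb2 (1314, 1434 and 1153), cofactors of the recombinase, were within 1.5-fold. Of 4 paralogues 3 were lower in KO, among them Mef2a at 20.1, 17.3 and 32.5 CPM and Notch2 at 23.5, 16.0 and 27 CPM.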

How the data were processed

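The values are UMI counts of sorted LSK cells from 3 libraries, 1 per genotype. The deposited count table of the authors holds whole-number UMI counts of the cells they kept; the deposited normalized table was not used. Tools named per the submitters' processing notes were Seurat, Cell Ranger and bcl2fastq, with mm10 as the build; their roles and versions are not given in the sources used here. Groups came from the sample titles.

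Counts were summed per library, or per library and class, and divided by the total to give CPM, with exact Poisson intervals. Ratios carry exact conditional binomial intervals, shares Clopper-Pearson intervals, all at 95%. Genes were called at 1.5-fold with a mean of at least 20 CPM. The limit that a count of 0 allows was taken as 3 counts, or 0.0273 CPM in DKO, 0.0296 in KO and 0.0350 in WT. Cells were clustered with scanpy 1.11.5 on 2000 variable genes, without the 10 genes, cell cycle, mitochondrial, ribosomal or sex-linked genes, using 30 principal components, 20 neighbours and Leiden resolution 1. A name needed 3 markers among the top 15 genes and a lead of 2; this rule was set after clusters had been seen. Scrublet's automatic calls covered 0.049% of DKO, 0.793% of KO and 0.025% of WT cells and were not used; all cells were kept, and an alternative removed the 536, 194 and 531 with the highest scores. TMM factors came from edgeR 4.0.16. Positions came from GENCODE vM21 (GRCm38). The code for ratios and their intervals was checked on simulated counts with known folds; the genotypes themselves were not tested.

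The 10 genes and all lists were chosen with earlier results of these data known. Named genes are the 10, in each list up to 3 genes over the level with the largest absolute log2 KO/WT ratio, and for each of the 10 the 3 most alike genes. Alternatives were other scalings, thresholds, cell weights, depths, filters, clusterings and cell mixes.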

Additional observations from a re-analysis of the deposited data

Results flagged for a closer look

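Dntt was at least 1.5-fold higher in DKO than in WT in lymphoid-primed-like cells only and lower in several clusters, which is why it is listed here. The clusters where it was lower included those led by Cpa3 and Ung (0.442), Nusap1 and Cenpf (0.639) and Hist1h2bc and Ccnb2 (0.485). Its DKO/WT ratio was 2.08 in lymphoid-primed-like cells and 0.177 in a cluster led by the immediate early genes Klf2 and Fos (425 DKO and 232 WT cells). The difference between the 2 ratios was not tested, since each genotype has 1 library. The first ratio was 1.07 when the Ly6d cluster was added to the class and 0.437 when the 10 genes were allowed into the clustering. Those classes join clusters that the libraries fill unequally: 316 and 298 DKO against 1422 and 743 WT cells in the first case, and 482 and 899 DKO against 1166 and 565 WT cells in the second. The part of that mix in the ratios was not tested.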

How the results depend on the processing

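No paired analysis was possible because each genotype has 1 library and the labels give no replicate numbers, and no library could be left out. Counts of genes at least 1.5-fold changed in whole libraries were 9 for KO/WT, 6 for DKO/KO and 4 for DKO/WT. Standardised to the WT cluster shares they were 1, 2 and 2. The clusters this standardisation leaves out hold most cells, and include the lymphoid-primed-like and B lineage-like cells. Without erythroid, neutrophil and B lineage classes the DKO/KO count was 2. Under other scalings, thresholds, cell weights, depths and filters the counts stayed within 1.5 times. Of the ratios that were at least 1.5-fold in whole libraries, the following reversed. Standardised log2 ratios were 0.06 for Bcl11a KO/WT, and -0.35 for Dntt, -0.84 for Il7r and -0.44 for Satb1 DKO/KO. Without those classes they were -0.16 for Dntt and -0.23 for Il7r DKO/KO. With smaller ratios counted as well, 5 of 10 genes kept their DKO/KO sign when standardised, and 7 of 10 without those classes. In lymphoid-primed-like cells the DKO/WT count of 2 was 1 at resolution 1.5, 5 with the 10 genes allowed in clustering, 1 at a naming lead of 1 (chosen after seeing the data) and 1 at 2-fold. KO could not be compared there, with 15 cells; other clusterings gave 83 to 109 KO cells, but in classes of several clusters that KO and WT fill unequally. At a naming lead of 1, the Ly6d cluster gave 80 of 95 KO and 743 of 2165 WT cells, and the Il7r KO/WT ratio was 2.02, against 0.990 within that cluster. In the Ly6d cluster, whose alternatives were all chosen after seeing the data, the KO/WT count of 1 was 0 at 50 CPM and 2 with equal cell weight or at equal depth, the DKO/KO count of 2 was 1 without the highest doublet scores, 1 at 50 CPM and 0 at 2-fold, and the DKO/WT count of 2 was 0 at 2-fold. The causes were not tested. Low counts limit Il7r and Ltb in the 80 KO cells of that cluster.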

Other observations

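The cluster led by Hist1h2bc and Ccnb2, with 275 DKO and 222 WT cells, was not among the named classes. At equal depth at least 5 of the 10 were found in 42.2% of its DKO cells (36.2 to 48.3) and 59.8% of its WT cells (52.6 to 66.7). Dntt was at 302 CPM in DKO and 624 in WT there, Ltb at 64.4 and 151, and Notch1 at 37.7 and 82.4. The other genes over the level lay within 1.5-fold, with DKO/WT ratios from 0.697 for Bcl11a to 0.917 for Ikzf1. The all-gene share was not computed for this cluster.

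A WT cluster of 1467 cells led by Zfp36, Fos and Egr1 held 15.7% of WT Dntt UMIs and 25.4% of WT Ltb UMIs, at 510 and 154 CPM. Another cluster led by immediate early genes, with Rgs1 and Fos, held 1150 DKO cells at 94.4 CPM of Dntt and 54.7 of Ltb. These 2 clusters are drawn almost wholly from 1 library each, so library and cell type cannot be told apart.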
